A study of Mus musculus with 8 samples.

Results

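The genes described here encode 9 elongation factors that travel with RNA polymerase II, among the 21887 protein-coding genes of the RefSeq table on chromosomes 1 to 19, X and Y. They are Ssrp1 and Supt16, Supt6 and Iws1, and Paf1, Ctr9, Leo1, Cdc73 and Rtf1. They were taken by name, as factors that work with Setd2 on transcribed chromatin, and every one was found in the table. The mark H3K36me3 was measured by ChIP-seq in mouse embryonic stem cell cultures, all of which carried a knockdown of Setd2 that doxycycline switches on. Knockdown cells (Dox +) received 1 µg/ml doxycycline for 4 days and control cells (Dox -) received none, and both were feeder-free sphere cultures kept naive by 2i and LIF. The labels give no strain, sex, clone number or knockdown efficiency. The 8 libraries, 2 ChIP and 2 input replicates in each condition, were merged by the authors into 1 peak list per condition. No replicate spread and no test between conditions can therefore be given.

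FACT, the dimer of the Ssrp1 and Supt16 products, is a histone chaperone that loosens and rebuilds nucleosomes as polymerase passes. Spt6, the product of Supt6, is a chaperone of histones H3 and H4 that rides on the phosphorylated polymerase, and Iws1 binds Spt6 and helps to bring Setd2 to the elongating complex. The PAF complex, which includes Paf1, Ctr9, Leo1 and Cdc73 and the more loosely held Rtf1, binds polymerase and is needed for H2B ubiquitination. Setd2 deposits H3K36me3 behind this machinery, so that the mark builds up over the bodies of transcribed genes.

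The merged ChIP libraries kept 29416169 tags in knockdown and 36244210 in control after duplicate removal, and the peak lists hold 3040 peaks in knockdown and 30634 in control. Setd2 itself had no knockdown peak and 11 control peaks, which describes its chromatin and not its transcript. The cell type label was checked on marker genes. In knockdown, 2 of 10 naive pluripotency genes had a peak, and in control 9 of the 10 did, all but Dppa5a. Of 6 fibroblast, 6 primitive endoderm and 6 neural markers, none had a peak in knockdown, and in control the peaks were in Pdgfrb (5.01% covered), Lamb1 (11.6%), and the neural genes Sox1 (38.1%) and Tubb3 (19.1%). The other 14 of these 18 markers, Col1a1, Gata6 and Pax6 among them, were covered over 0% in both conditions.

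The start sites from which distances are measured below come from RefSeq promoter windows (GRCm38.p6), each running from 250 bp before to 50 bp after the start. Windows were found for 7 of the 9 genes, and Iws1 and Ctr9 are described by coordinate only. The windows of the 3 genes that kept a knockdown peak, and of Supt16, whose FACT partner kept one, are shown because none of them lay under a peak in either condition. Capitals mark matches to the GC box (GGGCGG), the CCAAT box and the TATA box (TATAAA), each searched on both strands; matches may overlap. Ssrp1 has 2 windows, of which the outer is shown, on chr2:85036870-85037169, plus strand. Supt16 lies on chr14:52197190-52197489, minus strand. Supt6 lies on chr11:78245654-78245953, minus strand, and Leo1 on chr9:75441274-75441573, plus strand.
Ssrp1: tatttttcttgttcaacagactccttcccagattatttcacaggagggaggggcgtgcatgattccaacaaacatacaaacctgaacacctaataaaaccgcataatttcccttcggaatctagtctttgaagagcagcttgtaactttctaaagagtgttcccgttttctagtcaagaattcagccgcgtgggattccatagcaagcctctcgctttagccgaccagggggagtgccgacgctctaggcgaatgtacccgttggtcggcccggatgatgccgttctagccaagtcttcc
Supt16: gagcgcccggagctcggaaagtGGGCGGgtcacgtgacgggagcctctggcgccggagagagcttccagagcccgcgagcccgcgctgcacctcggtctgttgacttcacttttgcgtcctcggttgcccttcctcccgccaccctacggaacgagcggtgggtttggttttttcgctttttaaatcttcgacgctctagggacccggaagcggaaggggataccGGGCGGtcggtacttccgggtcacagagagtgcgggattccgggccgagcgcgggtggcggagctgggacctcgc
Supt6: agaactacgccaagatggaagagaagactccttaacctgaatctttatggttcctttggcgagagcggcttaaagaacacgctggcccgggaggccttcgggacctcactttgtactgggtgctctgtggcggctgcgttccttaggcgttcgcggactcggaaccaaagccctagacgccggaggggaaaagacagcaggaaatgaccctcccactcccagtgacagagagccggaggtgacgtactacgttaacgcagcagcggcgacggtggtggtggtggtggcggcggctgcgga
Leo1: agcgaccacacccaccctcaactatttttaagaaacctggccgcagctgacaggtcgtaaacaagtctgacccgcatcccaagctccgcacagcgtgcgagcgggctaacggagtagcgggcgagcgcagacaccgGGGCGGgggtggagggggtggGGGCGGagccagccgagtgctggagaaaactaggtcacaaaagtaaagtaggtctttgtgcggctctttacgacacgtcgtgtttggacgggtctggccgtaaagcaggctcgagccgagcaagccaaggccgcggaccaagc

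The Supt16 and Leo1 windows each held 2 GC boxes, and those of Ssrp1 and Supt6 held none of the 3 motifs. Over 21263 promoter windows of protein-coding genes, 46.2% held a GC box, 38.2% a CCAAT box and 12.6% a TATA box. CpG dinucleotides numbered 15 in the Ssrp1 window, 35 in Supt16, 24 in Supt6 and 26 in Leo1, against a median of 13 over all windows. The start of Supt6 lies 43 bp from that of Sdf2 on the opposite strand, and the start of Paf1, whose window held 2 GC boxes and 3 CCAAT boxes, lies 306 bp from that of Med29. None of the 7 windows was touched by a peak in either condition. This is close to the background, since peaks touched 0.103% of all windows in knockdown and 1.71% in control.

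All 9 genes were covered by H3K36me3 peaks in control, and 3 of them, Ssrp1, Supt6 and Leo1, still held a peak after knockdown. No member was covered over as much as 15% of its length in knockdown, while 7 of 9 were covered over at least 50% in control, a level that 17.0% of all protein-coding genes reached. With a gene counted when the midpoint of a peak lies inside it, 3 members had a knockdown peak and 8 a control peak, and all 3 were among the 8. Over all protein-coding genes, 4.95% had a knockdown peak and 41.2% a control peak by that rule. Of the genes with a control peak, 10.6% also had a knockdown peak. Paf1 was the member not counted in control, because its peak ran on into Samd4b. When 1 bp of overlap sufficed, the members counted 3 in knockdown and 9 in control, against 5.17% of all genes in knockdown and 44.8% in control, and 10.4% of the genes touched in control was also touched in knockdown. Among the 3718 genes covered over at least 50% in control, 13.5% were touched by a knockdown peak, compared with 3 of the 7 members in that class. The knockdown calls depended on the threshold: with caller scores of at least 100 Supt6 alone kept a knockdown peak, and with an FDR of 1% or less Ssrp1 alone. With so few members these shares are descriptions, and the members were chosen with earlier results known.

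The median covered share of the 9 genes was 0% in knockdown and 68.8% in control. The control list holds far more peaks. With only its 3040 top-scoring peaks, the members' median was 0% in knockdown and 22.9% in control, and Supt6, Paf1, Cdc73 and Rtf1 were covered over 0% in control. The long control peaks of Supt6 (28960 bp, 2039 tags) and Paf1 (21085 bp, 1388 tags) had caller scores of only 92.97 and 130.34. The ranking by score thus left them out despite their many tags. For all protein-coding genes the medians, with all peaks, were 0% in both, and for the 9806 genes with any control coverage they were 0% in knockdown and 37.2% in control. Summed over the members, 7928 bp lay under peaks in knockdown and 151962 bp in control, so that 5.22% as much sequence was covered. Over all protein-coding genes the same ratio was 2.77%. Supt6 alone held 5116 of the 7928 bp. By group the ratio was 10.7% for Supt6 and Iws1, 4.86% for the FACT genes and 1.86% for the PAF complex genes.

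**Figure D1:**
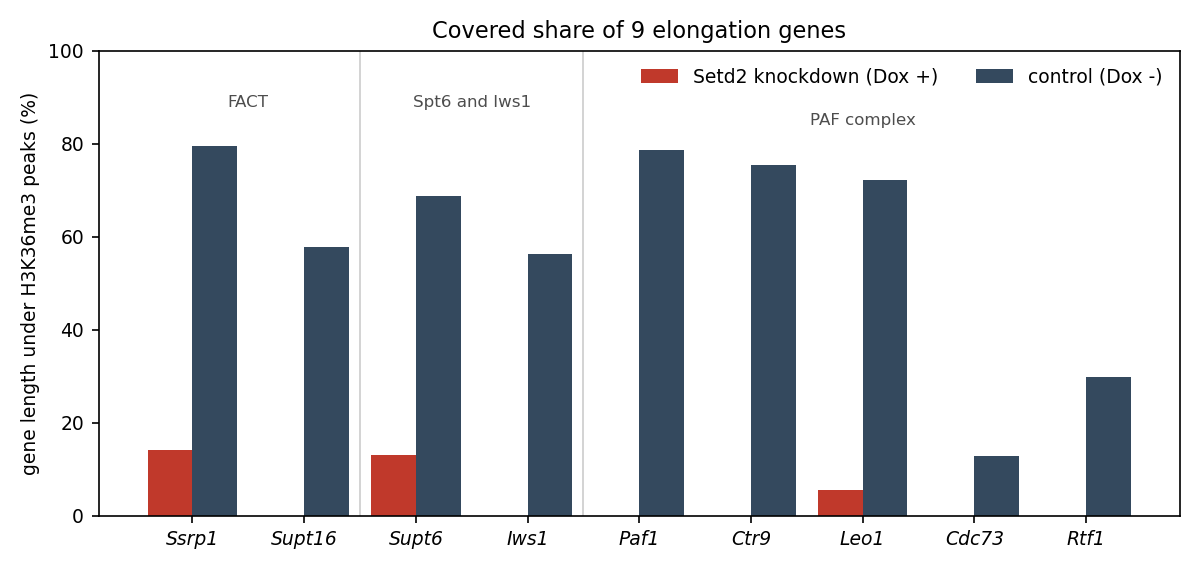
Percent of gene length under H3K36me3 peaks (vertical axis) for each of the 9 genes, with knockdown to the left of control in each pair of bars; each bar is from 1 merged peak list with all its peaks and has no error. Ssrp1, Supt6 and Leo1 have a knockdown bar, at 14.2%, 13.0% and 5.48%, and Cdc73 and Rtf1 have the lowest control bars, at 12.9% and 29.8%.

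Of the FACT genes, Ssrp1 kept a peak after knockdown and Supt16 did not. Ssrp1, the HMG-box subunit, lies on chromosome 2 from 85037120 to 85047114 and is 9.995 kb long (mm10, as all coordinates here). It was covered over 14.2% of its length in knockdown, by 1 peak, and over 79.4% in control, also by 1 peak. The knockdown peak ran from 85040264 to 85041683, which is 3144 to 4563 bp past the start site, inside the control peak from 85039176 to 85047639. It was thus confined to the first part of a control domain that reached past the end of the gene. The knockdown peak held 48 tags (exact Poisson 95% interval 35.4 to 63.6, counting error only, as all intervals here) and the control peak 603 (556 to 653). Tags per kb of peak were divided by the kept tags of the merged library in units of 1000000, and are called the scaled density. It was 1.15 (0.847 to 1.52) in knockdown and 1.97 (1.81 to 2.13) in control. The densities belong to stretches of different length and do not compare the same bases. They are also taken only over stretches that passed the caller's threshold. Division by kept tags does not register a change in the total amount of the mark, so their ratio does not measure its loss.

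Supt16, the large subunit of FACT, lies on chromosome 14 from 52160419 to 52197239. It had no peak in knockdown and 3 in control, over 57.8% of its length. The longest control peak held 1015 tags over 14905 bp, at a scaled density of 1.88 (1.77 to 2.00), close to that of the Ssrp1 control peak. The first 12679 bp after its start site carried no control peak. The control peak at the end of the gene, with 434 tags, ran on over the end of Rpgrip1, and its tags cannot be divided between these genes. A gene without a knockdown peak is one where no stretch passed the caller's threshold, and tags outside peaks are not listed, so its remaining level is unknown.

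Supt6 kept more peaks than any other member. It lies on chromosome 11 from 78206749 to 78245972 and was covered over 13.0% in knockdown, by 3 separate peaks, and over 68.8% in control, by 1 peak of 28960 bp. The control peak held 2039 tags (1951 to 2129). The knockdown peaks held 56, 81 and 51 tags in the order of transcription. They began 18689, 31849 and 36720 bp past the start site, so that 2 of the 3 lay near the end of the gene. Their scaled densities were 1.24 (0.936 to 1.61), 1.27 (1.00 to 1.57) and 1.23 (0.919 to 1.62) in knockdown, against 1.94 (1.86 to 2.03) for the control peak. The 3 knockdown densities overlapped fully within their counting intervals. The control peak also reached past the end of Supt6 into Proca1.

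Iws1, the Spt6 partner that helps to recruit Setd2, had no knockdown peak. It lies on chromosome 18 from 32067326 to 32104331, and its 4 control peaks covered 56.2% of its length. They held 96, 471, 192 and 323 tags, at scaled densities of 1.38 to 1.46, the narrowest range of densities among the members with several control peaks. Both ends of the gene were bare in control: the first peak by coordinate began at 32074649 and the last ended at 32098534.

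Of the 5 PAF complex genes among the members, only Leo1 held a knockdown peak. Leo1, on chromosome 9 from 75441015 to 75466432, was covered over 5.48% in knockdown and 72.2% in control, with 1 and 3 peaks. The knockdown peak ran from 75460607 to 75461998, or 19083 to 20474 bp past the start site, and held 53 tags (39.7 to 69.3). It lay around the summit of a control peak: its own summit was 57 bp from that of the 11683 bp control peak around it. The scaled density was 1.29 (0.970 to 1.69) in the knockdown peak and 1.79 (1.66 to 1.92) in that control peak, and these intervals overlap slightly. The knockdown interval also overlaps that of the neighbouring control peak at 1.74 (1.57 to 1.91).

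Paf1 and Ctr9 were covered at least as widely as Leo1 in control and had no knockdown peak. Paf1, which gives the complex its name, is the shortest member at 6.388 kb, on chromosome 7 from 28392996 to 28399383. It was covered over 0% in knockdown and 78.8% in control. Its single control peak began 1357 bp past the start site and spanned 21085 bp with 1388 tags, of which 5031 bp lay in Paf1 and most of the rest in Samd4b, a gene on the opposite strand. Convergent neighbours of this kind share the called domain, so that its tags cannot be assigned to either. Ctr9, the scaffold subunit, lies on chromosome 7 from 111028951 to 111056377. It was covered over 0% in knockdown and 75.4% in control, by 5 control peaks of 56, 274, 117, 321 and 382 tags. Their scaled densities ran from 1.13 to 1.56.

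Cdc73 and Rtf1 are the longest members, 99.618 and 60.34 kb, and had the lowest control coverage. Cdc73 encodes parafibromin, a tumour suppressor, on chromosome 1 from 143603276 to 143702893. It was covered over 0% in knockdown and 12.9% in control. All 4 of its control peaks lay between 7432 and 26939 bp past the start site, with 147, 157, 217 and 108 tags in the order of transcription. The remaining 72678 bp to the end of the gene carried none, a stretch that includes B3galt2, which lies within Cdc73 and had no peak. Rtf1, on chromosome 2 from 119675068 to 119735407, was covered over 0% in knockdown and 29.8% in control, by 6 peaks. These held 172, 62, 212, 337, 66 and 102 tags in the order of transcription. The last 4 lay beyond 44730 bp from the start site, so Rtf1 was marked mainly towards its end and Cdc73 only near its start.

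**Figure D2:**
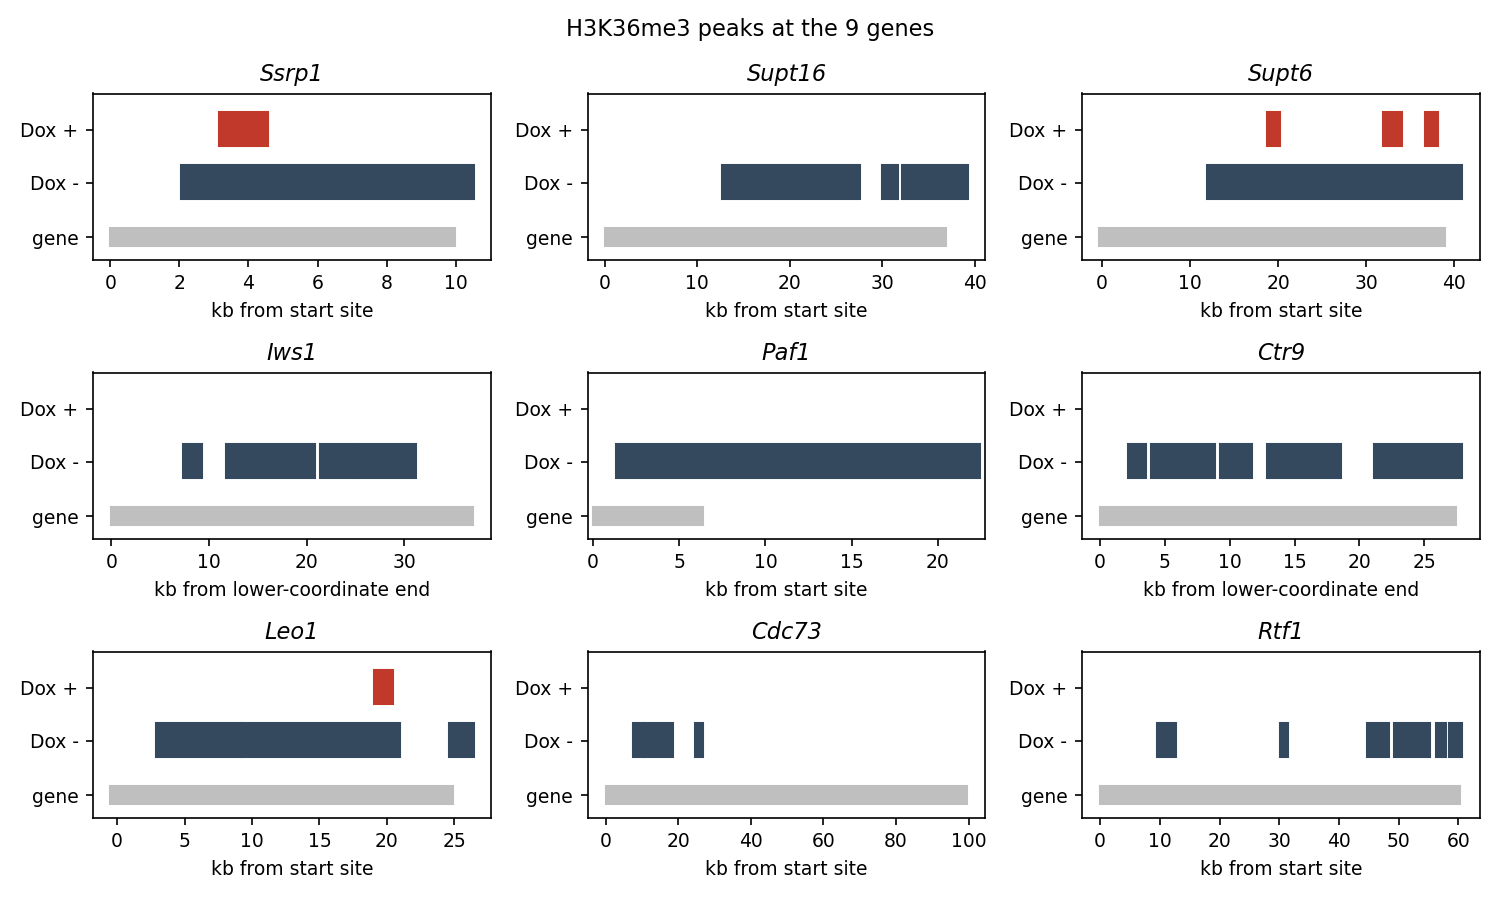
Peaks (coloured blocks, knockdown above control) drawn along each of the 9 genes (grey bar), in kb from the start site or, for Iws1 and Ctr9, from the end with the lower coordinate; the horizontal scale differs between panels. All 5 knockdown peaks sit within the span of a control peak, and no control peak reaches the start site of any of the 7 genes that have one.

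The 5 knockdown peaks at these genes were ordinary for their list. They held 48 to 81 tags, with a median of 53 against 58 over all 3040 knockdown peaks, and were 1392 to 2176 bp long, with a median of 1420 bp against 1594 bp. Their scaled density was 1.15 to 1.29, where the whole list had a median of 1.25 and a 5th percentile of 1.12. The authors' fold over local background was 3.68 to 4.97 for these peaks and had a median of 4.11 over the list. The 28 control peaks stood higher in their own list. Their median scaled density was 1.47 against 1.27 over all 30634 control peaks, and their median length 3806 bp against 2451 bp.

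The 3 genes with a knockdown peak were among the 5 densest members in control. Over the covered part of each gene, the scaled control density was 1.97 in Ssrp1, 1.94 in Supt6, 1.82 in Paf1, 1.78 in Supt16 and 1.76 in Leo1. The other 4 members had 1.50 (Ctr9), 1.44 (Rtf1), 1.44 (Iws1) and 1.35 (Cdc73). Paf1 and Supt16 lay between Supt6 and Leo1 in control density and had no knockdown peak. The Paf1 value is that of a peak shared with Samd4b, and the Supt16 value includes a peak shared with Rpgrip1. The Supt6 control peak also reached into Proca1. Paf1 and Ctr9 were covered more widely than Supt6 and Leo1 in control and had no knockdown peak. Whether control density or covered share bears on keeping a peak was not tested.

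**Figure D3:**
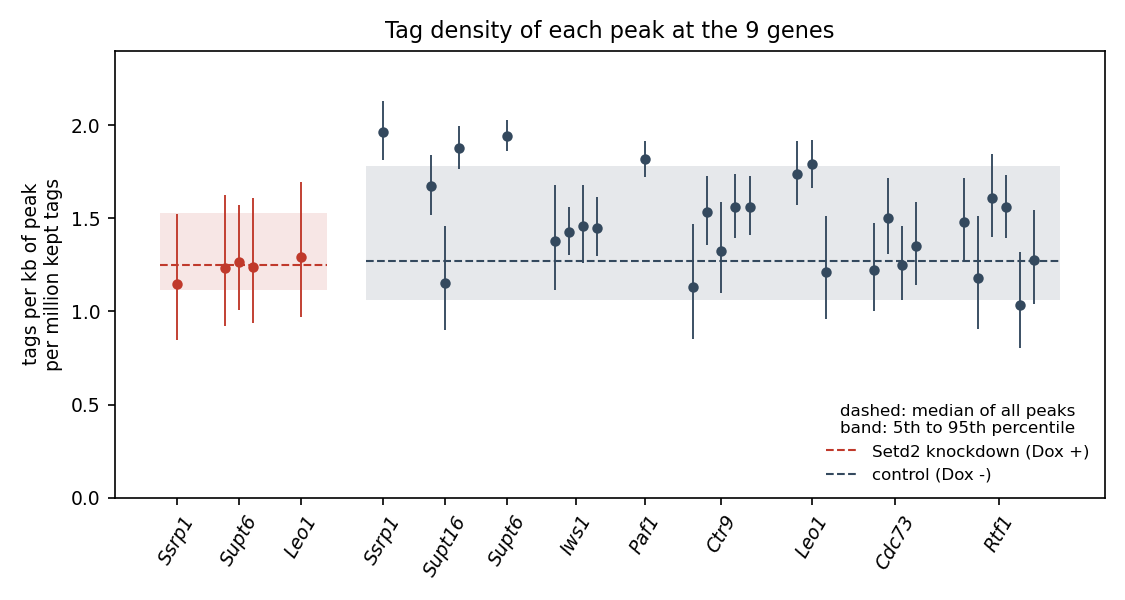
Scaled tag density, in tags per kb of peak per 1000000 kept tags (vertical axis), for every peak at the 9 genes, knockdown on the left and control on the right; points are single peaks and bars exact Poisson 95% intervals, with the median (dashed line) and the 5th to 95th percentile (band) of all peaks in each list. The knockdown points lie around the median of their list, and control points of Ssrp1, Supt16, Supt6, Paf1 and Leo1 lie above the band of theirs.

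All 5 knockdown peaks lay wholly inside a control peak, as did 51.6% of the whole knockdown list. In the other direction 3 of the 28 control peaks at the members were overlapped by a knockdown peak, with 6.52% over the control list. The distance between the summit of the knockdown peak and that of its control peak was 361 bp in Ssrp1 and 57 bp in Leo1. In Supt6 it was 3875, 1174 and 14309 bp. The median over the 2226 knockdown peaks that overlap a control peak was 715 bp, so the Ssrp1 and Leo1 distances were shorter and those in Supt6 longer than this median. A control peak as long as that of Supt6 leaves more room for such a distance.

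Along the gene, the 7 members with a start site were nearly bare at the front and, on average, evenly covered from the middle on in control. The span of each gene was divided into 10 equal bins in the order of transcription. For Leo1 and Supt6 the start site lies inside the span, so bin 1 begins before it. In bin 1 the mean covered share of the 7 members was 0% in knockdown and 3.63% in control, where Cdc73 alone was touched. It was 10.5% in knockdown and 71.7% in control in bin 5, and 5.11% in knockdown and 69.7% in control in bin 10. Single members departed from the control means. Cdc73 was at 0% from bin 4 on, Leo1 fell to 10.6% in bin 10, and Rtf1 was at 1.67% in bin 5. Ssrp1, Supt16, Supt6 and Paf1 were at 100% in bins 5 and 10. Over 7145 protein-coding genes of 5 kb or longer with control coverage and a start site, bin 1 averaged 0.182% in knockdown and 8.21% in control. Bin 5 of these genes averaged 1.13% in knockdown and 40.8% in control, and bin 10 averaged 1.48% in knockdown and 53.9% in control. The first control peak began 1357 (Paf1) to 12679 bp (Supt16) past the start site, with a median of 4784 bp over the 7145 genes. In knockdown each bin of the members rests on at most 2 genes.

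**Figure D4:**
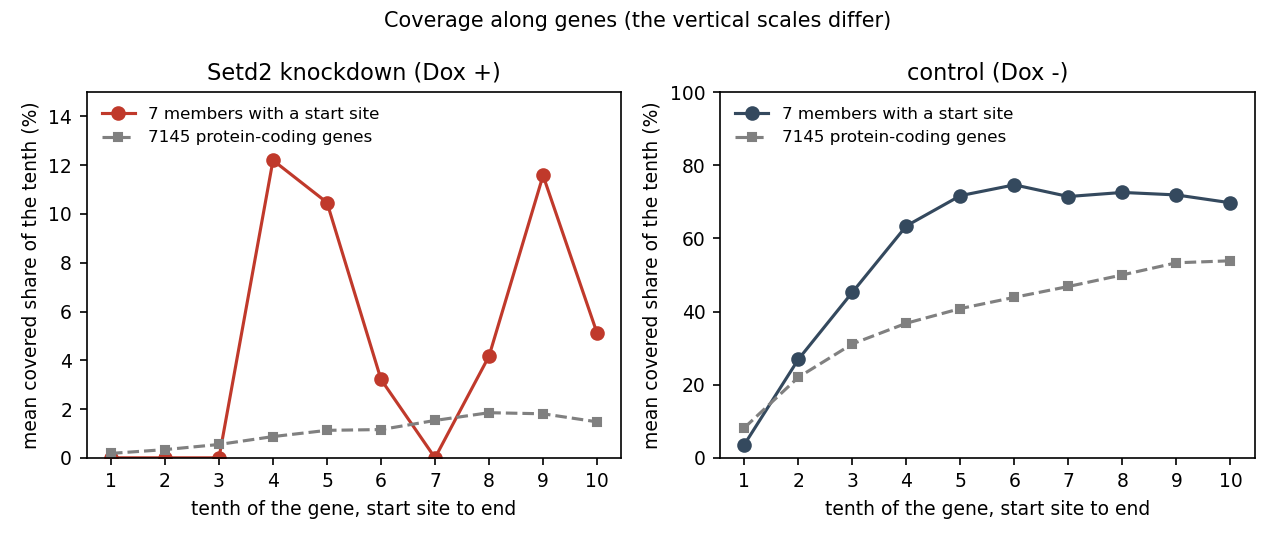
Mean percent of each of 10 equal bins of the gene span under peaks (vertical axis, on different scales) in the order of transcription (horizontal axis), for the 7 members with a start site and for 7145 protein-coding genes, with knockdown on the left and control on the right. In control the members rise from 3.63% in bin 1 to 71.7% in bin 5; the knockdown line rests on Ssrp1, Supt6 and Leo1.

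Other genes of transcription, with RNA polymerase II subunits and histone chaperones included, were read the same way, from lists chosen by function. Of 67 such genes, 10 had a knockdown peak and 55 a control peak by the midpoint rule, with a median control coverage of 57.6%. With 1 bp of overlap these counts were 10 and 60. By the midpoint rule, 4.95% of all protein-coding genes had a knockdown peak and 41.2% a control peak. Of the genes with a control peak, 10.6% also had a knockdown peak. The groups are small, and their counts below, by the midpoint rule unless stated, are descriptions. The members' control median was 68.8%, and by group the others ran from 30.2% to 75.8%, the highest being DSIF, NELF and P-TEFb, so the members' median lay within the range of the other groups. Further genes linked to the PAF complex, as subunits or partners, and to H2B ubiquitination had a peak in 0 of 7 genes in knockdown and 6 of 7 in control. The ubiquitin ligase genes Rnf40 and Rnf20 were the most covered of these, at 0% in knockdown each, and at 93.0% and 84.6% in control. The genes of DSIF, NELF and P-TEFb, which hold and release paused polymerase, had a knockdown peak in 3 of 11 and a control peak in 10 of 11. The 3 were Cdk9 (21.6% in knockdown, 84.7% in control), Supt5 (6.27%, 87.1%) and Nelfa (4.47%, 37.8%), and Nelfb was the most covered in control (0%, 93.3%).

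Genes of the super elongation complex, ELL, elongin and TFIIS had a knockdown peak in 2 of 15 and a control peak in 11 of 15. With 1 bp of overlap, 13 of 15 had a control peak. The 2 in knockdown were Eloa (8.59% in knockdown, 56.3% in control) and the scaffold gene Aff4 (2.47%, 51.2%). Elob (0%, 77.0%) and Eaf1 (0%, 74.3%) were covered most in control, although no control peak had its midpoint in Elob. Kinases and phosphatases of the polymerase tail had 2 of 9 in knockdown and 8 of 9 in control, the 2 being Ctdp1 (3.85%, 37.3%) and Cdk12 (1.77%, 63.0%). Ccnk (0%, 85.1%) and Cdk7 (0%, 71.8%) led that list in control. Other histone chaperones had 1 of 12 in knockdown and 11 of 12 in control. That gene, Npm1, which encodes nucleophosmin, was covered over 73.8% in knockdown and 86.3% in control, more than 5 times the knockdown share of Ssrp1. Nasp, a chaperone of histones H3 and H4, was covered over 0% in knockdown and 88.9% in control. RNA polymerase II subunits had 2 of 13 in knockdown and 9 of 13 in control by the midpoint rule. With 1 bp of overlap, 12 of 13 had a control peak. The 2 were Polr2a, the catalytic subunit (16.3%, 65.3%), and Polr2m (14.7%, 75.9%), and Polr2e led in control (0%, 87.2%).

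**Figure D5:**
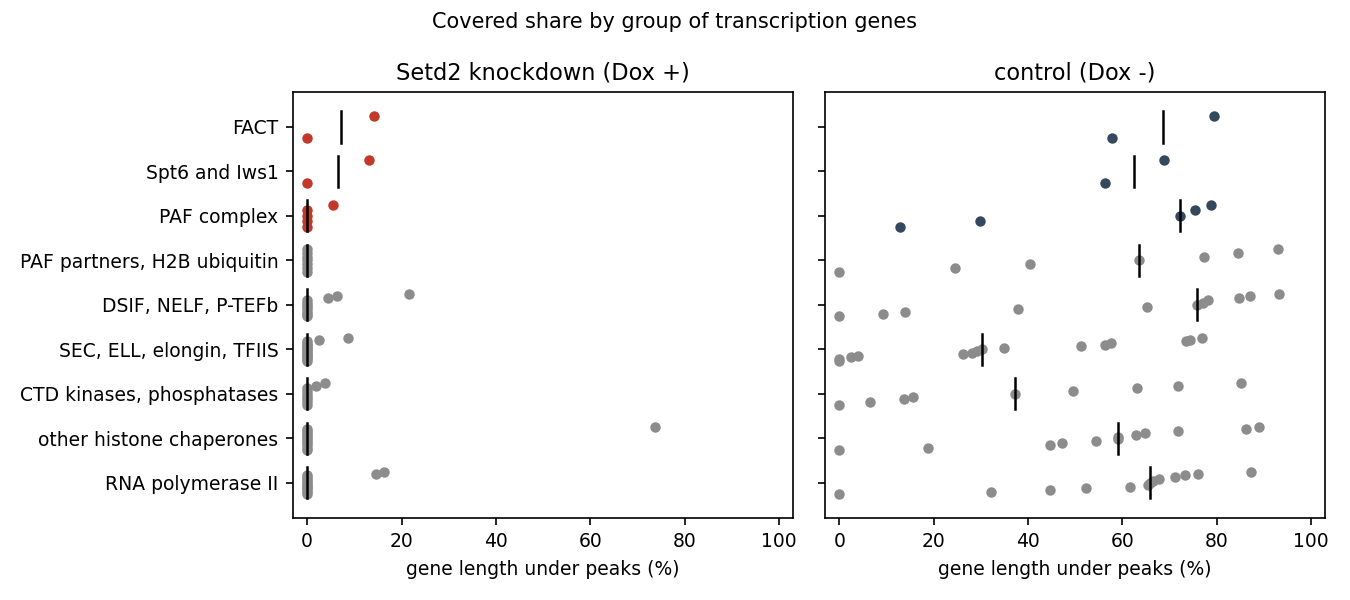
Percent of gene length under peaks (horizontal axis) for the members (coloured, top 3 rows) and the other groups of transcription and histone chaperone genes (grey), with knockdown on the left and control on the right; each point is a gene and each black line the median of its row. Npm1, at 73.8%, is the point far to the right in knockdown.

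The genes most like each member in both conditions were sought among protein-coding genes 0.5 to 2 times as long that overlap no other. Genes with a Gm or Rik symbol were left out. Likeness was the sum of the differences in covered share over the 2 conditions. Nearest to Ssrp1 were Ddx56 (13.1% in knockdown, 78.9% in control), Alg11 and Zfp12, within 1.74 percentage points in sum. Nearest to Supt6 were Eif4b (13.4%, 70.5%), Senp2 and Etv5, within 2.99, and to Leo1 Emc1 (6.73%, 71.8%), Dot1l and Dync1li2, within 2.73. The members without a knockdown peak had closer matches, all at 0% in knockdown and within 0.12 points. These were Terf2, Polh and Glud1 for Supt16, Ltn1, Lsm14a and Mfsd14a for Iws1, and Pim1 and Ndufs6 for Paf1. For Ctr9 they were Eif2s1, Ywhaq and Rnf4, for Cdc73 Chd5, Efr3a and Fbxw11, and for Rtf1 Dars, Klf15 and Sp3. Each match rests on 2 values from 2 peak lists. For the members at 0% in knockdown, most candidate genes were at 0% too, and control share alone ranked these. The closer fit of those members was therefore given in advance.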

How the data were processed

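H3K36me3 ChIP and input libraries from Setd2 knockdown and control mouse embryonic stem cells, 2 replicates each, were grouped by their titles. Whether replicates were separate cultures is not in the labels. The submitters' processing notes name Bowtie 1.1.2, FastQC 0.11.5 and the build mm10. Per the file headers, peaks were called with MACS 1.4.2 on merged replicates against merged inputs, with a p cutoff of 1e-05 and 1 tag kept per position. Nothing on multiply matching reads was given in the sources used here. The deposited tables give for each peak the count of tags, not normalized, and a score, which is the caller's p-value as -10 log10. They also hold the authors' fold over local background, a ratio, and the FDR in percent that the authors deposited. These last 3 measures come from the authors and served only to describe or filter peaks inside a list. The deposited BED files repeat those peaks whose FDR is at most 5%, namely 2961 in knockdown and 30595 in control.

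Covered share, midpoints and overlaps were computed in Python 3.11.15 with pandas 2.3.3 and numpy 2.4.6, and tested on simulated intervals. Gene spans and start sites came from RefSeq GRCm38.p6; all 104 listed symbols matched. Tags of a peak were shared out by the part inside the gene and scaled to 1000000 kept tags. Poisson intervals came from scipy 1.17.1. All members are named; from each other list, the genes with a knockdown peak and the 2 most covered in control are named, as are the 3 genes most like each member and those that share a member's peak; 1 gene that this rule names is not reported here. The members and lists were chosen with earlier results of these data known. Alternatives were other peak rules, thresholds, spans and scalings.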

Additional observations from a re-analysis of the deposited data

How the results depend on the processing

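No paired analysis was possible because the authors merged both replicates of each condition before calling peaks, which also means that no replicate could be left out. Keeping peaks that scored at least 100, 1 member (Supt6) had a knockdown peak and 7 a control peak, 0 had both, and the median control coverage was 56.2%, since the Supt6 control peak of 92.97 was dropped. With an FDR of 1% or less, 1 member (Ssrp1) had a knockdown peak and the same 1 had both. With only the 3040 top-scoring control peaks, 5 members had a control peak at a median coverage of 22.9%. Requiring 50% of each peak left 0 control peaks of members overlapped. Extending genes by 1 kb gave a median control coverage of 67.9%, and scaling to all tags before duplicate removal a median scaled control density of 1.50. By the same scaling the median scaled knockdown density was 0.9503. With a gene counted at 10% coverage, 2 members had a knockdown peak and 2 had both, and with equal peak numbers 2 had both. Of 36 alternative values, 26 kept within the limits set for them, 1.5 times for a count and the counting interval for a value. Some of the 26 could not move, so this count does not measure robustness. Filters that only remove peaks leave a knockdown median of 0% at 0%. The FDR limit of 5% removed no peak of a member, the highest being at 2.12%. The calls of Ssrp1, Supt6 and Leo1 in knockdown rest on peaks of 48 to 81 tags with caller scores of 56.95 to 114.93, where the lowest score in the knockdown list was 50.01.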

Other observations

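Of its 10 bins, Cdc73 was marked in the first 3 and bare in the other 7 in control, a pattern looked for after its values had been seen. The count of other genes was wider than this pattern. It took genes with control coverage only within the first 3 bins, whether or not all 3 were marked. Of 2017 protein-coding genes of 50 kb or longer with control coverage and a start site, 122 (6.05%) were counted. Of 7145 such genes of 5 kb or longer, 274 (3.83%) were counted.

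The caller's score rose with the tags among most of the members' shorter peaks, and the longest ones departed from this. The Supt6 control peak, with 2039 tags over 28960 bp, scored 92.97 and the Paf1 peak, with 1388 tags, 130.34, whereas the Ssrp1 control peak, with 603 tags, scored 1108. Over the control list the median score was 208.8 for the 175 peaks above 20 kb, 526.2 for the 1352 peaks of 10 to 20 kb and 130.17 for the 29107 shorter ones. In the knockdown list the deposited FDR was higher for members' peaks of higher score, 2.12% at a score of 114.93 in Supt6 and 0.99% at 56.95 in Ssrp1, so a strict FDR kept the weakest of them.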
